A study of Mus musculus with 10 samples.

Results

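The genes described here are 10 markers of the subclasses of inhibitory interneurons in the cerebral cortex: Pvalb, Sst, Vip, Lamp5, Npy, Cck, Reln, Ndnf, Calb2 and Cort. They were chosen by name, with earlier results of these data known, and are 10 of the 30142 genes tested. Each had 1 array row that named it alone, so no member was left out. The arrays measured RNA from mouse brain 7 days after a controlled cortical impact, an injury model in which a driven tip dents the brain surface of 1 hemisphere, here by 2 mm. The 5 ipsilateral arrays held tissue from the injury site, and the 5 contralateral arrays held the matching region of the other hemisphere. All mice were injured adults of 8 to 12 weeks and of both sexes, so the contralateral arrays are controls from injured animals. The labels named neither a strain nor a genotype, and did not say whether a replicate number marks 1 mouse on both sides.

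Cortical interneurons release GABA, and nearly all fall into a few large subclasses. Cells that express Pvalb or Sst arise in the medial ganglionic eminence of the embryo and mostly inhibit the cell bodies or the dendrites of pyramidal neurons, whereas Vip and Lamp5 cells arise largely from the caudal ganglionic eminence and neighbouring preoptic region. Cck, Npy, Reln, Ndnf and Calb2 cross these borders: Npy and Reln are made by several subclasses, Ndnf and Reln mark cells of the outermost layer, Calb2 is found in many Vip cells, and Cck and Calb2 are also made by neurons that are not interneurons.

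Ipsilateral replicate 1 stood apart from the other arrays. In it, a list of olfactory bulb neuron genes, which was drawn up after the members' values by array had been seen, had a mean log2 signal of 10.02 over its 9 measured genes. The same mean lay between 6.69 and 7.25 in the other ipsilateral arrays and between 6.64 and 7.05 in the contralateral arrays. In that array 8 of the 9 genes were higher than in every other array. The transcription factor Eomes read 9.10 against 4.34 to 4.77 elsewhere, and Th, the rate-limiting enzyme of dopamine synthesis, read 11.34 against 5.14 to 5.45. Cdhr1, a cadherin of mitral and tufted cells, read 12.30 there and 5.29 to 7.31 elsewhere, while Slc17a6, a glutamate transporter, read 8.96 and lay within the other arrays. None of the 9 genes passed the test between sides over all arrays, and Cdhr1 alone passed without ipsilateral replicate 1 (1.18 ± 0.25, limma adjusted p = 0.0208). Of the 10 interneuron markers, 8 had their highest ipsilateral value in that array and 1, Sst, its lowest. What part the array's make-up had in these values was not tested, and the side differences of the markers and the counts of called genes in each list are given with and without it where they differ. Contralateral replicate 4 also differed from its group: it had the highest contralateral value of 4 markers (Reln, Ndnf, Calb2 and Cort) and the lowest of 3 (Pvalb, Lamp5 and Npy). In that array the mean of 6 thalamic neuron genes was 7.05 against 6.15 to 6.39 in the other contralateral arrays, and the mean of 5 oligodendrocyte genes was 10.32 against at least 11.36.

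**Figure D1:**
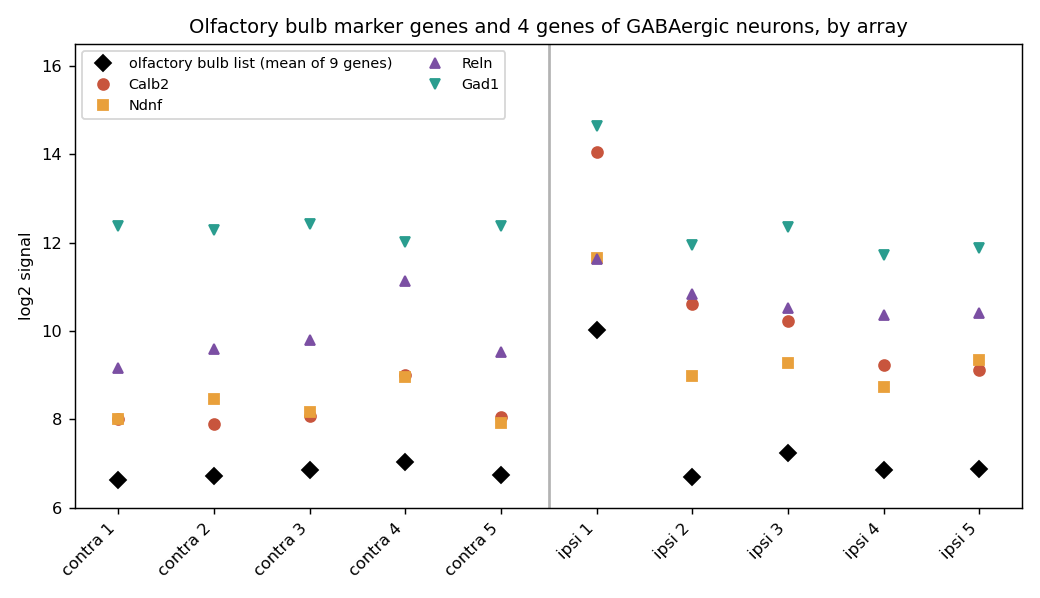
Log2 signal on each of the 10 arrays (horizontal axis, contralateral then ipsilateral replicates) for the mean of 9 olfactory bulb genes and for Calb2, Ndnf, Reln and Gad1. In ipsilateral replicate 1 the bulb mean reads 10.02, Calb2 14.06 and Gad1 14.65, each above every other array.

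Of the 10 markers, Lamp5, Pvalb and Vip were lower on the injured side and none was higher (limma, Benjamini-Hochberg adjusted p under 0.05 over 30142 genes, the threshold used throughout). The other 7 did not pass the test. Over all genes tested, 4.33% were lower, 1.22% were higher and 5.55% passed in either direction. These 1305 lower and 369 higher genes became 2130 and 225 with each array centred on its median and 970 and 464 with cyclic loess. With the dimmest 50% of genes left out, 1637 of 15070 genes were lower and 534 higher, a larger share than over all genes. The shares given below are over all genes, dim ones included. The median log2 fold change, ipsilateral minus contralateral, was -0.31 over the 10 markers and 0.022 over all genes. In 4 of the 10 markers the 5 ipsilateral and 5 contralateral values did not overlap, against 7.25% of all genes (5.21% below and 2.04% above). At an unadjusted p under 0.05, 8 of the 10 markers passed, the dim Cort among them, against 21.3% of all genes. When ipsilateral replicate 1 was left out, 4 markers were lower (Cck was added) and 1, Calb2, was higher, with 5.33% and 2.52% of all genes called lower and higher. Without contralateral replicate 4, the same 3 were lower and Reln was higher, with 1187 lower and 385 higher among all 30142 genes. With both arrays left out, 5 markers were lower (Npy and Cck were added) and 3 were higher (Reln, Ndnf and Calb2), against 4.88% lower, 2.28% higher and 7.17% in either direction over all genes. Contralateral replicate 4 had been noticed through the values of these same markers. The olfactory bulb list that set ipsilateral replicate 1 apart was also drawn up after those values had been seen. Counts without either array are thus a description and support none of the calls they add. The arrays hold RNA of whole tissue, so fewer cells of a subclass and less RNA per cell cannot be told apart.

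**Figure D2:**
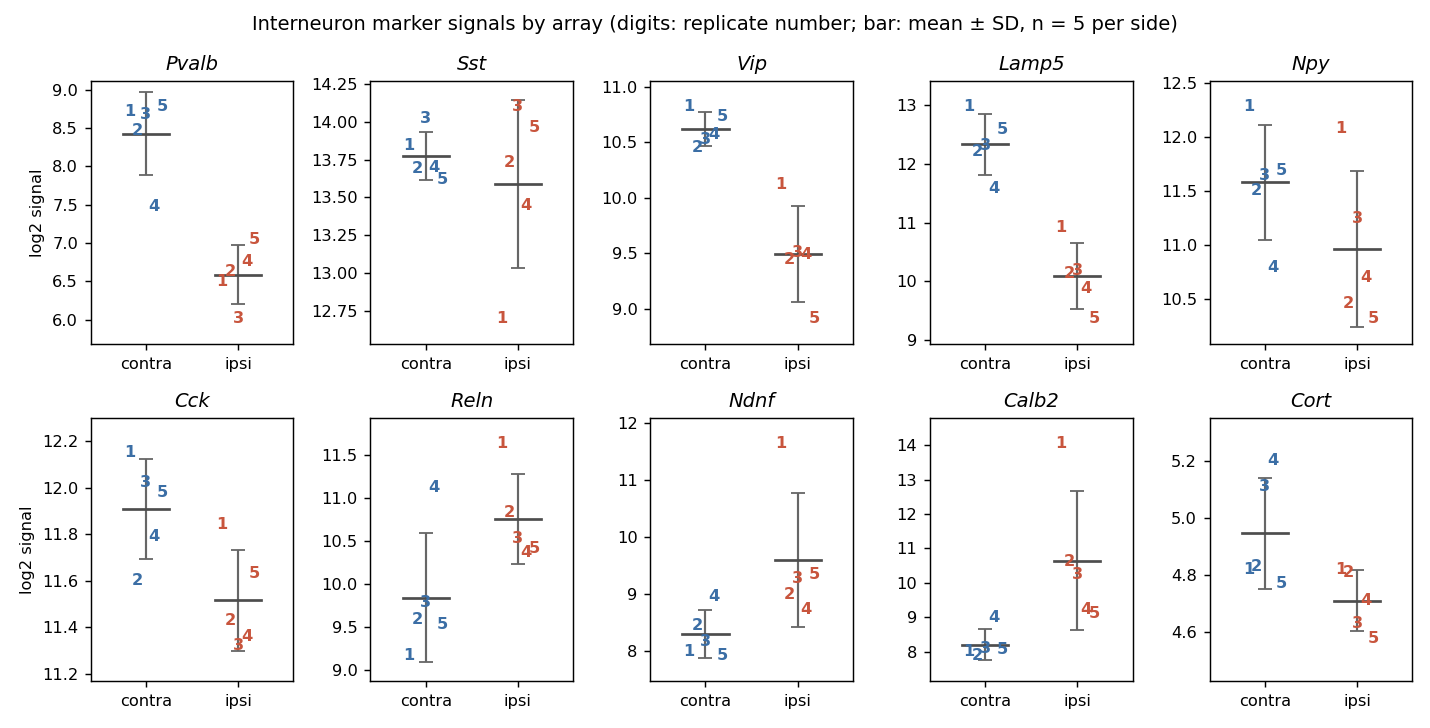
Log2 signal of each marker (vertical axis, its own range per panel) on the contralateral and ipsilateral arrays, with digits for replicate numbers and bars for mean ± SD of 5 arrays. The groups separate for Pvalb, Vip, Lamp5 and Calb2, and ipsilateral replicate 1 lies far above the other ipsilateral arrays for Ndnf (11.65) and Calb2 (14.06).

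The first 2 markers encode calcium-binding proteins of the EF-hand family. Pvalb, parvalbumin, marks fast-spiking basket and chandelier cells. It read 6.49, 6.63, 6.01, 6.76 and 7.04 on ipsilateral arrays 1 to 5 and 8.71, 8.47, 8.68, 7.48 and 8.78 on contralateral arrays 1 to 5. Every ipsilateral value was below every contralateral one, and contralateral replicate 4 was the lowest of its side by 0.99 to the next array. The fall was 3.58-fold, with an adjusted p of 0.00305, and it was -1.81 ± 0.29 (SE) on the log2 scale without ipsilateral replicate 1 and -2.07 without contralateral replicate 4. Calb2, calretinin, read 14.06, 10.62, 10.23, 9.23 and 9.11 on the ipsilateral arrays and 8.00, 7.89, 8.09, 9.0 and 8.06 on the contralateral ones. All ipsilateral values were above all contralateral ones, but by only 0.11 between the lowest ipsilateral array and contralateral replicate 4. Ipsilateral replicate 1 was higher than the next array by 3.44. The difference was 2.44 ± 0.80 and did not pass the test (adjusted p = 0.108). Without ipsilateral replicate 1 it was smaller, 1.59 ± 0.34, and passed (adjusted p = 0.0222). It did not pass in any of the other 9 fits that left out 1 array, with adjusted p from 0.0964 to 0.201.

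The neuropeptide markers were Sst, Vip, Npy, Cck and Cort. The somatostatin promoter is the textbook example of a gene switched on through cyclic AMP: the factor CREB binds a palindrome named the cAMP response element, with the letters TGACGTCA, and its first 5 letters, TGACG, form a shorter and weaker site. RefSeq promoter windows of GRCm38.p6, running from 250 bases before to 50 bases after a start, were held for 8 of the 10 markers, and none for Ndnf and Calb2. Both strands were searched. The 100 bases before the start are shown for the peptide genes with a match and, for contrast, for 2 called genes without one, Pvalb and Lamp5 (the first of 2 windows each). Capitals mark the full element in Sst and the short site elsewhere, which in Cck and Cort lies on the opposite strand and so reads CGTCA.
Sst (chr16:23890845-23890944, minus strand): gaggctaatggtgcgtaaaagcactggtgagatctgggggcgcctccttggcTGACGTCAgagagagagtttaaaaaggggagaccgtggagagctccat
Vip (chr10:5639118-5639217, plus strand): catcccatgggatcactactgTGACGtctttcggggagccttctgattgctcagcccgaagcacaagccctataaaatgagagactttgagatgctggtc
Cck (chr9:121495695-121495794, minus strand): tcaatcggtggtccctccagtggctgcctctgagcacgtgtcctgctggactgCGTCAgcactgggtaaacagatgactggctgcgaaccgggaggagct
Cort (chr4:149126764-149126863, minus strand): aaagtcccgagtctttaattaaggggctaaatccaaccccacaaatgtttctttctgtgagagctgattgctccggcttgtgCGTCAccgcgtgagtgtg
Pvalb (chr15:78206401-78206500, minus strand): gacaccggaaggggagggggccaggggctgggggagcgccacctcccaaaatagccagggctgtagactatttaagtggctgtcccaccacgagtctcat
Lamp5 (chr2:136052239-136052338, plus strand): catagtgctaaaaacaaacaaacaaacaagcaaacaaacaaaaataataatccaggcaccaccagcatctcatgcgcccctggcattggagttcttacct
The full element was found in Sst alone among these windows, with its first letter 48 bases before the start. It occurs in 1.79% of all 32851 windows. The short site, which every full element holds on both strands, was also found in Vip (79 bases before the start), Cck (47) and Cort (18), and 20.8% of all windows hold it. Neither was found in the windows of Pvalb, Lamp5, Npy and Reln. The starts of the 2 Lamp5 windows lie 314 and 5723 bases inside the RefSeq gene, so the outer end of that gene was not searched. The Sst start also lies inside its RefSeq gene. A match of letters describes the sequence only.

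Sst, somatostatin, read 12.70, 13.73, 14.10, 13.45 and 13.96 on the ipsilateral arrays and 13.84, 13.69, 14.02, 13.70 and 13.62 on the contralateral ones. The groups overlapped, and ipsilateral replicate 1 was the lowest array of all. The difference was -0.19 ± 0.23 with a 95% interval of -0.69 to 0.32 (adjusted p = 0.699). The difference turned to 0.036 ± 0.13 without ipsilateral replicate 1, with an interval of -0.26 to 0.34.

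Vip, vasoactive intestinal peptide, marks cells that mainly inhibit other interneurons. It read 10.12, 9.44, 9.51, 9.49 and 8.91 on the ipsilateral arrays and 10.82, 10.45, 10.52, 10.57 and 10.73 on the contralateral ones. The groups did not overlap, and the contralateral arrays lay within 0.37 of each other. Vip was 2.18-fold lower on the injured side (adjusted p = 0.00586). The change was -1.28 ± 0.13 without ipsilateral replicate 1. With only replicates 1, 3 and 5 of each side the change was similar, -1.18 ± 0.29, and did not pass (adjusted p = 0.119).

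Npy, neuropeptide Y, is made by Lamp5 cells and by part of the Sst cells. It read 12.08, 10.46, 11.25, 10.70 and 10.32 on the ipsilateral arrays and 12.28, 11.50, 11.64, 10.79 and 11.69 on the contralateral ones. Ipsilateral replicate 1 and contralateral replicate 4 each lay within the range of the opposite side. The difference was -0.62 ± 0.35 (adjusted p = 0.347), and -0.90 ± 0.28 without ipsilateral replicate 1 (adjusted p = 0.0845). With both arrays left out it was -1.10 ± 0.23 (adjusted p = 0.0225). Cck, cholecystokinin, read 11.84, 11.43, 11.32, 11.36 and 11.63 on the ipsilateral arrays and 12.15, 11.60, 12.02, 11.79 and 11.98 on the contralateral ones. The groups overlapped in ipsilateral replicates 1 and 5 and contralateral replicates 2 and 4. The difference was -0.39 ± 0.13 (adjusted p = 0.102). It passed without ipsilateral replicate 1 (-0.47 ± 0.12, adjusted p = 0.0365) and with each array centred on its median (-0.45, adjusted p = 0.0445), and in the other 9 fits without 1 array its adjusted p was 0.0607 to 0.215. Cort, cortistatin, a peptide close to somatostatin, read 4.58 to 4.82 ipsilaterally and 4.77 to 5.20 contralaterally. The medians of whole arrays were 4.71 to 4.84, so a Cort signal above background was not shown, and its difference of -0.24 ± 0.10 (adjusted p = 0.187) is given as a value only.

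The remaining markers encode a membrane protein and 2 secreted proteins. Lamp5, a protein of synaptic vesicles in some GABAergic neurons that in mouse cortex is also made by part of the excitatory neurons, read 10.91, 10.13, 10.19, 9.87 and 9.36 on the ipsilateral arrays and 12.98, 12.21, 12.31, 11.58 and 12.59 on the contralateral ones. The groups were 0.67 apart at their nearest arrays, ipsilateral replicate 1 and contralateral replicate 4. Lamp5 had the largest fall of the 10 markers, 4.73-fold (adjusted p = 0.00238), and the change was -2.45 ± 0.27 without ipsilateral replicate 1 and -2.43 without contralateral replicate 4. Pvalb, Vip and Lamp5 each passed in all 10 fits that left out 1 array, with adjusted p of at most 0.0128, 0.0219 and 0.00958.

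Reln, reelin, is the extracellular signal that guides layering in development and is kept up in adult interneurons. It read 11.64, 10.83, 10.53, 10.37 and 10.42 on the ipsilateral arrays and 9.17, 9.59, 9.79, 11.13 and 9.53 on the contralateral ones. The groups were separate except for contralateral replicate 4, which was higher than 4 of the 5 ipsilateral arrays. The difference was 0.92 ± 0.36 and did not pass (adjusted p = 0.172). It passed without contralateral replicate 4 (1.24, adjusted p = 0.0208) and was 0.70 without ipsilateral replicate 1 (adjusted p = 0.255). Ndnf, a secreted factor of neurogliaform cells, read 11.65, 8.99, 9.27, 8.73 and 9.35 on the ipsilateral arrays and 8.00, 8.46, 8.17, 8.97 and 7.93 on the contralateral ones. Ipsilateral replicate 1 was 2.30 above the next array, and contralateral replicate 4 was above ipsilateral replicate 4. The difference of 1.29 ± 0.48 did not pass (adjusted p = 0.155), nor did the 0.78 ± 0.22 without ipsilateral replicate 1 (adjusted p = 0.0580). It was 0.95 ± 0.16 with both arrays left out (adjusted p = 0.00954). Reln is also made by Cajal-Retzius cells of the cortical surface. The 4 genes listed for those cells (Trp73, Lhx1, Lhx5 and Ebf3) had a mean of 4.53 to 4.80 ipsilaterally and 4.52 to 4.59 contralaterally, near or below the array medians. All 4 differences were positive and none passed the test. Ebf3 lay above the medians, at 5.00 to 5.42 ipsilaterally and 4.95 to 5.10 contralaterally, and differed by 0.22 ± 0.08 (adjusted p = 0.171). What part those cells had in the Reln values was not tested.

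**Figure D3:**
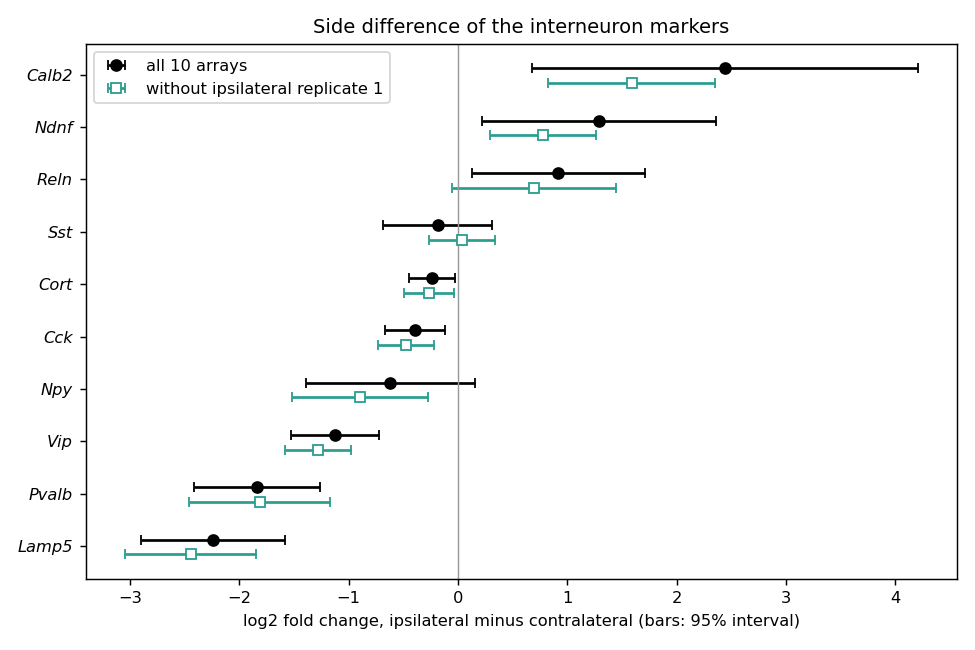
Log2 fold change of each marker, ipsilateral minus contralateral (horizontal axis), with 95% intervals of the limma fit, over all 10 arrays (filled circles) and without ipsilateral replicate 1 (open squares). Lamp5, Pvalb and Vip lie below 0 in both, and the Calb2 estimate moves from 2.44 to 1.59.

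To ask whether the markers differed from each other in their response to side, the within-array difference in log2 signal between 2 markers was compared between sides with an exact two-sided permutation test, which cancels any offset of an array. All 45 pairs were tested, with Benjamini-Hochberg adjustment over the 45, and the smallest p that the splits of 10 arrays into 5 and 5 can give is 0.00794. Of the 45 pairs, 31 differed, and 25 of the 36 pairs that do not involve Cort. The pairs share 10 genes and are not independent, and the share among pairs of other genes was not computed. With ipsilateral replicate 1 left out, 30 pairs differed, of which 27 were among the 31. The side difference of Pvalb minus that of Sst was -1.65 (adjusted p = 0.0286), so the 2 markers of the medial eminence lineage differed. Sst minus Lamp5 gave 2.06 (adjusted p = 0.0286). For Sst minus Vip the gap of 0.94 did not pass over all arrays (adjusted p = 0.0816) and passed without ipsilateral replicate 1 (1.32, adjusted p = 0.0275). Among the 3 markers that fell, Lamp5 fell more than Vip, by a gap of 1.12 (adjusted p = 0.0179), whereas Pvalb was not shown to differ from Vip (-0.71, adjusted p = 0.145) or from Lamp5 (0.40, adjusted p = 0.432).

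Reln, Ndnf and Calb2 differed from the falling markers in the other direction. The widest gap was between Lamp5 and Calb2, at -4.68 (adjusted p = 0.0179), and it was -4.04 without ipsilateral replicate 1. All 9 pairs of Reln, Ndnf or Calb2 with Pvalb, Vip or Lamp5 passed, with gaps from -2.04 to -4.68. Both sets were picked by the direction of their side differences on these same arrays. The count of 9 therefore describes part of the 45 tests and is no further support. Vip and Calb2, which many cells express together, were -3.57 apart over all arrays and -2.87 apart without ipsilateral replicate 1. Npy and Lamp5, both markers of neurogliaform cells, differed by -1.62 (Lamp5 minus Npy, adjusted p = 0.0179). Reln and Ndnf, the markers of the outermost layer, were not shown to differ (-0.38, adjusted p = 0.444), and neither were Sst and Npy (0.43, adjusted p = 0.536) or Sst and Cck (0.21, adjusted p = 0.617).

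**Figure D4:**
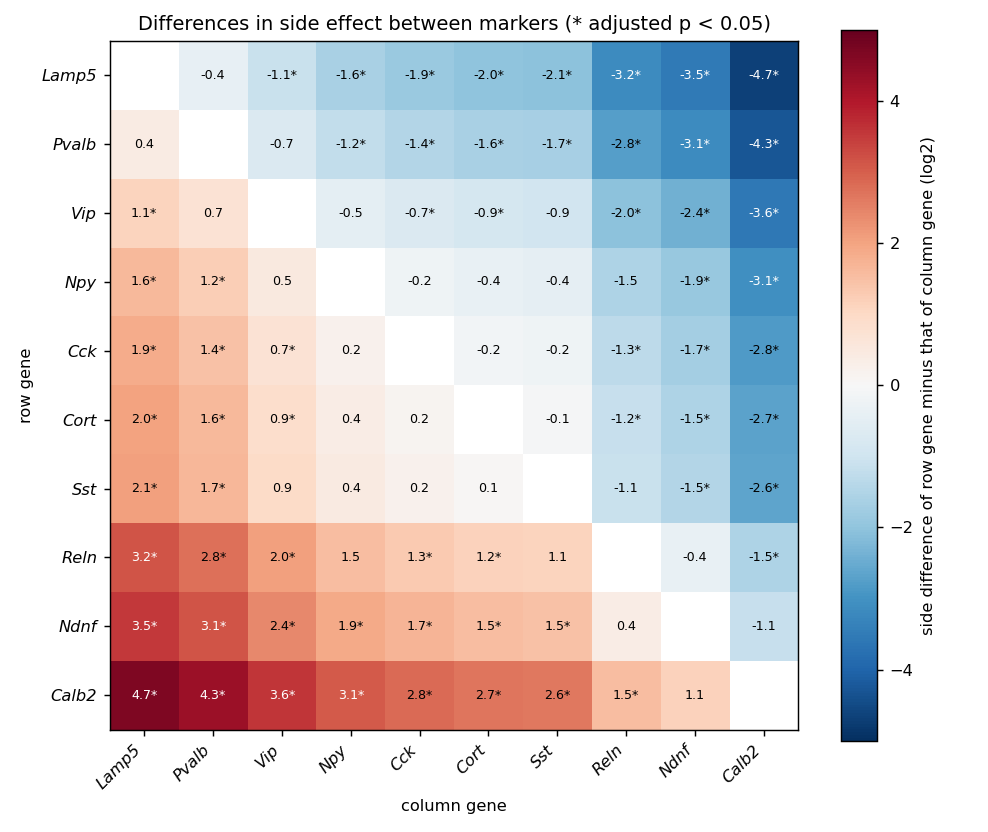
Side difference of the row gene minus that of the column gene in log2 units for all 45 pairs of markers, with genes ordered from the most negative side difference (Lamp5) to the most positive (Calb2). Asterisks mark the 31 pairs with an adjusted p under 0.05 in the exact permutation test.

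All these cells make GABA, so the markers were set against the shared synthesising enzymes. Gad1 read 14.65, 11.94, 12.35, 11.72 and 11.88 on the ipsilateral arrays and 12.37, 12.30, 12.42, 12.01 and 12.39 on the contralateral ones. Leaving aside ipsilateral replicate 1, its ipsilateral values were within or below the contralateral range, and the difference turned from 0.21 ± 0.48 to -0.33 ± 0.13 without that array (adjusted p = 0.170). Gad2 read 11.81 to 13.53 ipsilaterally and 11.65 to 12.04 contralaterally, with ipsilateral replicates 1 (13.53) and 3 (13.16) above the rest, and did not pass (0.60 ± 0.33, adjusted p = 0.332, and 0.33 ± 0.25 without ipsilateral replicate 1). Relative to the mean of Gad1 and Gad2 in the same array, the side difference was -2.65 for Lamp5, -2.24 for Pvalb, -1.53 for Vip and 2.04 for Calb2 (exact permutation test, adjusted p = 0.0198 for each over the 10 markers). Npy, which had not passed by itself, was lower relative to the enzymes, at -1.02 (adjusted p = 0.0317), and Ndnf was higher by 0.89 (adjusted p = 0.0397). Cck (-0.80), Cort (-0.64), Sst (-0.59) and Reln (0.51) did not pass, with adjusted p from 0.0567 to 0.603. Of the 6 that passed, 5 also passed without ipsilateral replicate 1, at -2.45 for Lamp5, -1.81 for Pvalb, -1.28 for Vip, 1.59 for Calb2 and -0.90 for Npy. Ndnf did not (0.78, adjusted p = 0.0661). The side differences of Gad1 (0.21) and Gad2 (0.60) over all arrays enter the values of that comparison with the opposite sign. The share of all genes that pass against the enzymes was not computed, so whether 6 of 10 is unusual is not known.

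The list of general GABAergic genes held 8 measured members and none passed the test. Its median log2 fold change was 0.46 over all arrays and -0.05 without ipsilateral replicate 1, in which the mean of the list was 10.82 against 8.64 to 9.24 in the other ipsilateral arrays and 8.79 to 8.89 contralaterally. The vesicular GABA transporter Slc32a1 differed by 0.05 ± 0.33 and by -0.27 ± 0.20 without that array, and by -0.016 with each array centred on its median. The neuregulin receptor Erbb4, which had the largest moderated statistic of the list, differed by -0.27 ± 0.10 (adjusted p = 0.165).

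Genes of the 2 developmental lineages were followed next. Of 5 measured genes of the medial eminence lineage, 1 fell: Satb1, a chromatin organiser needed for Sst and Pvalb cells to mature, at -1.23 ± 0.20 (adjusted p = 0.00614). It read 7.30 to 8.24 ipsilaterally and 8.40 to 9.29 contralaterally, without overlap. Lhx6, the transcription factor that both Pvalb and Sst cells keep into adulthood, read 5.87 to 6.56 ipsilaterally and 6.17 to 6.31 contralaterally, a difference of 0.024 ± 0.12 that turned to -0.038 with median centring and to -0.0485 without ipsilateral replicate 3. None of 6 genes of the caudal eminence lineage passed. Nr2f2, a nuclear receptor of that lineage that vascular cells also make, read 6.80, 9.01, 9.55, 8.36 and 8.77 on the ipsilateral arrays and 6.48, 6.35, 6.86, 7.78 and 6.67 on the contralateral ones. The groups overlapped through ipsilateral replicate 1, and the difference of 1.67 ± 0.46 (adjusted p = 0.0633) passed without that array (2.09, adjusted p = 0.00436) and without contralateral replicate 4 (1.91, adjusted p = 0.0426).

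Of 7 measured genes associated with Pvalb cells, 4 fell and none rose, with a median of -0.55. For this list and the others, the share of all genes tested was 4.33% lower and 1.22% higher. Without ipsilateral replicate 1 that share was 5.33% and 2.52%. Without contralateral replicate 4, 1187 and 385 of 30142 genes were called lower and higher. Syt2, the fast calcium sensor of basket cell terminals, fell by 1.49 ± 0.22 on the log2 scale (adjusted p = 0.00362). It read 6.65 to 7.20 ipsilaterally and 7.66 to 8.93 contralaterally. The Kv3 potassium channel gene Kcnc2, whose channels allow fast spiking, fell by 0.75 ± 0.12 (adjusted p = 0.00488), and Cox6a2, a subunit of the respiratory chain enriched in these cells, fell by 0.43 ± 0.07 (adjusted p = 0.00601). A further Kv3 gene, Kcnc1, fell by 0.58 ± 0.13 (adjusted p = 0.0267), a call that held in 4 of the 10 fits without 1 array and was lost without ipsilateral replicates 2 or 5 or contralateral replicates 1, 2, 3 or 5 (adjusted p 0.0558 to 0.0706), and with quantile normalization (adjusted p = 0.0526) or cyclic loess (adjusted p = 0.0511). It was also lost without replicates 2 and 4 of both sides (adjusted p = 0.0728). With either ipsilateral replicate 1 or contralateral replicate 4 left out, 5 genes of the list were lower, with the complexin gene Cplx1 added.

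Of 10 genes associated with Sst cells, none fell and 2 rose, with a median of 0.25. Both are typical of the rare long-range Sst cells that make nitric oxide, but which cells made this RNA was not tested. Nos1, neuronal nitric oxide synthase, read 9.47, 10.32, 10.41, 9.76 and 10.12 ipsilaterally and 8.12, 8.09, 8.57, 9.36 and 8.09 contralaterally. All ipsilateral values were higher, with contralateral replicate 4 nearest to them, and the rise was 2.97-fold (1.57 ± 0.27, adjusted p = 0.00751). Tacr1, the substance P receptor, read 5.57 to 7.21 ipsilaterally and 4.78 to 5.38 contralaterally. The lowest of these values were close to the contralateral array medians of 4.71 to 4.77. Tacr1 rose by 1.27 ± 0.30 (adjusted p = 0.0341). That call was lost in 5 of the 10 fits without 1 array, those without ipsilateral replicate 2 or contralateral replicates 1, 2, 3 or 5 (adjusted p 0.0521 to 0.0861), with quantile normalization (0.0604) or cyclic loess (0.0530), without replicates 2 and 4 of both sides (0.0778), and without both arrays that stood apart (0.0559). Chodl, the usual marker of those cells, read 5.05 to 5.72 ipsilaterally and 4.69 to 5.24 contralaterally and did not pass (0.33 ± 0.14, adjusted p = 0.204). Chodl was named after its values were seen. Leaving out ipsilateral replicate 1, the list had 1 lower gene (Pdyn) and 3 higher (with Grin3a added), and leaving out contralateral replicate 4, 3 higher (again with Grin3a).

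None of 9 genes associated with Vip and Cck cells passed, and their median was 0.12. The cannabinoid receptor Cnr1, which Cck basket cells carry on their terminals, had the largest statistic (0.36 ± 0.11, adjusted p = 0.0860) and passed only without ipsilateral replicate 1 among the fits that left out 1 array (0.43, adjusted p = 0.0343). In that fit the stress peptide gene Crh was lower, at -0.93 ± 0.14 (adjusted p = 0.00497), against -0.69 ± 0.24 over all arrays (adjusted p = 0.126). The list thus had 1 lower and 1 higher gene there, and 1 lower without contralateral replicate 4 (Igfbp6). Of 8 genes associated with Lamp5 cells, 1 fell, with a list median of 0.21. This was Id2, an inhibitor of helix-loop-helix factors that other cell types also make, which read 13.70 to 14.71 ipsilaterally and 14.82 to 15.11 contralaterally and fell by 0.86 ± 0.16 (adjusted p = 0.0130), a call lost without replicates 2 and 4 of both sides (adjusted p = 0.131). Lamp5 itself is not a member of that list.

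Receptors for the marker peptides and for reelin were counted as well. Of 14 measured, 3 fell, none rose, and the median was -0.16. Vipr1, a receptor for Vip, read 6.35 to 6.60 ipsilaterally and 6.89 to 7.23 contralaterally, without overlap, and fell by 0.63 ± 0.09 (adjusted p = 0.00283). Cckbr, the main brain receptor of Cck, read 10.50, 9.05, 9.64, 9.20 and 8.59 ipsilaterally and 10.35 to 10.69 contralaterally, so that ipsilateral replicate 1 alone lay in the contralateral range. Its fall of 1.14 ± 0.29 (adjusted p = 0.0455) passed in 1 of the 10 fits without 1 array, the one without ipsilateral replicate 1 (adjusted p = 0.00199), and had adjusted p of 0.0605 to 0.111 in the other 9. Sstr4, a somatostatin receptor, fell by 0.47 ± 0.12 (adjusted p = 0.0473) and likewise passed in 1 of those 10 fits, without ipsilateral replicate 2, with 0.0503 to 0.118 in the others. Both calls were also lost with quantile normalization (adjusted p = 0.0641 for Cckbr and 0.0940 for Sstr4) with cyclic loess (0.0658 and 0.102), and without replicates 2 and 4 of both sides (0.359 and 0.102). Without ipsilateral replicate 1 the list had 2 lower receptors (Vipr1 and Cckbr) and 2 higher (Npy2r and Sstr1), and without contralateral replicate 4 it had 1 lower (Vipr1). The reelin receptors Lrp8 (0.14 ± 0.19) and Vldlr (-0.20 ± 0.08) and their adaptor Dab1 (0.18 ± 0.11) did not pass. They were named after their values were seen.

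**Figure D5:**
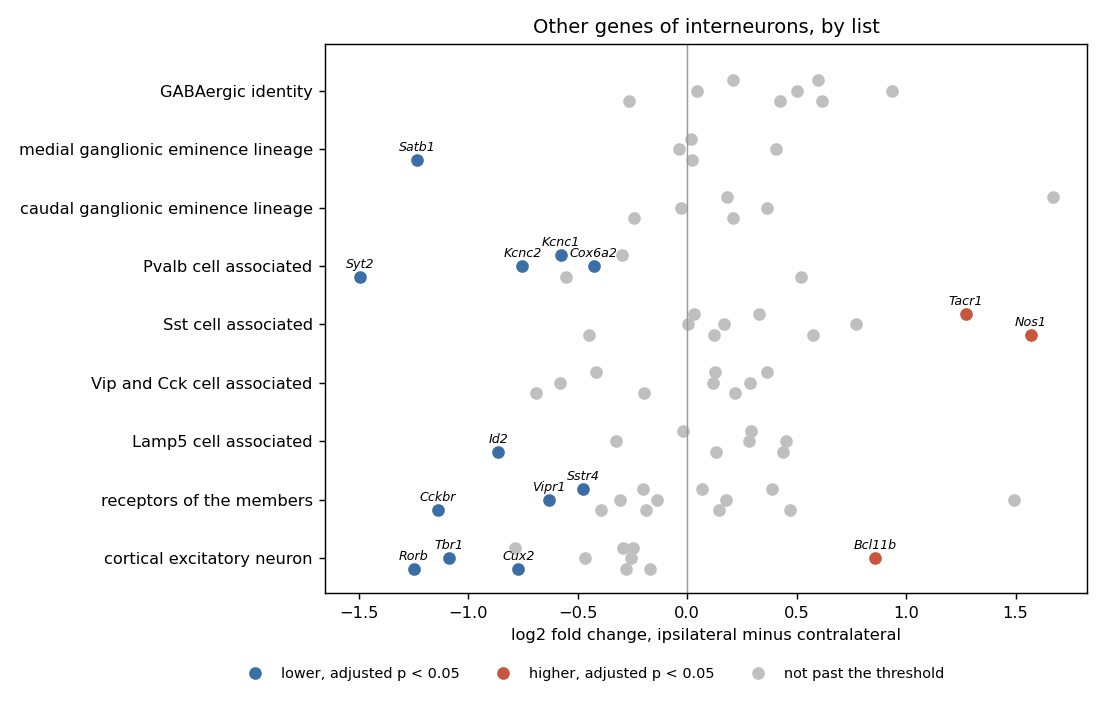
Log2 fold change, ipsilateral minus contralateral (horizontal axis), of the measured genes of 8 interneuron lists and of cortical excitatory neurons, with called genes in colour and named. The Pvalb-associated genes Syt2, Kcnc2, Kcnc1 and Cox6a2 lie left of 0 and the Sst-associated genes Nos1 and Tacr1 right of it.

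For each marker that fell, the 3 genes with the nearest centred profile over the 10 arrays were found by root mean square difference in log2 signal. The search left out the 10 markers and genes whose symbols begin with Gm and a digit or with LOC, or end in Rik. A gene of that kind may therefore lie nearer than those named. For Pvalb they were Cd34 (0.191), Sytl2 (0.275) and Adcy1 (0.276). For Vip they were Syne1 (0.124), Etv5 (0.132) and Camk2n1 (0.149), and for Lamp5 they were Kcnh7 (0.227), Rgs4 (0.263) and Rims3 (0.274). No marker was among the nearest of another because the markers themselves were left out.

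Markers of other cells moved with side as well, and their part in the interneuron results was not tested. The mean of 11 cortical excitatory genes was 10.21 to 10.44 ipsilaterally and 10.74 to 10.83 contralaterally, with 3 genes lower (Tbr1, Cux2 and Rorb) and 1 higher (Bcl11b). The mean of 7 pan-neuronal genes was 14.47 to 14.94 and 14.75 to 15.01, with 2 lower: Rbfox3 at -0.54 ± 0.10 and Nefl at -0.89 ± 0.18, the latter not called without contralateral replicate 1 (adjusted p = 0.0521). The falls of Pvalb (-1.84 ± 0.26) and Lamp5 (-2.24 ± 0.30) were larger in size than those of Rbfox3 and Nefl. That of Vip (-1.12 ± 0.18) lay between those of the excitatory genes Tbr1 (-1.09 ± 0.13) and Rorb (-1.25 ± 0.17). Cux2 fell by less (-0.77 ± 0.10), and Bcl11b rose (0.86 ± 0.16). These comparisons were not tested. The mean of 8 microglia and macrophage genes was 8.53 to 10.19 against 8.11 to 8.74, of 6 vascular and fibroblast genes 8.37 to 9.52 against 7.96 to 8.44, of 6 astrocyte genes 9.39 to 10.49 against 9.09 to 9.51, and of 5 oligodendrocyte genes 9.75 to 11.04 against 10.32 to 11.69. In these 4 lists none fell and 0, 2, 1 and 0 genes rose, in that order. Aqp4 was the astrocyte gene, and Dcn and Col1a1 were the vascular and fibroblast genes. The Dcn call held in 4 of the 10 fits without 1 array, those without ipsilateral replicates 1 or 3 or contralateral replicates 2 or 4, and the Col1a1 call in 3, those without ipsilateral replicates 1, 2 or 5 (adjusted p at most 0.0672 and 0.0963 in the others). When ipsilateral replicate 1 was left out, 4 microglia genes (Csf1r, C1qb, Cd68 and Aif1) and 3 astrocyte genes (Gfap, Aqp4 and Slc1a3) were higher. When contralateral replicate 4 was left out, 4 oligodendrocyte genes were lower (Mog, Mag, Mobp and Cnp, adjusted p 0.0173 to 0.0433) and 1 vascular and fibroblast gene, Dcn, was higher. Without replicates 2 and 4 of both sides, Cux2 (adjusted p = 0.0633), Rorb (0.0983), Rbfox3 (0.122), Nefl (0.0814), Aqp4 (0.115), Dcn (0.185) and Col1a1 (0.101) were not called.

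Lists for neighbouring brain regions, immature neurons and neuronal activity were read in the same way. The mean of 6 striatal genes was 7.18 to 8.49 ipsilaterally and 6.94 to 7.28 contralaterally with none called (Penk 1.22 ± 0.33, adjusted p = 0.0589). The mean of 6 hippocampal genes was 6.26 to 7.66 and 6.13 to 6.86 with Wfs1 higher (1.76 ± 0.32), and of 6 thalamic genes 6.14 to 6.54 and 6.15 to 7.05 with Ramp3 lower (-0.91 ± 0.06) and Tcf7l2 also higher without contralateral replicate 4. The mean of 4 neuroblast genes was 9.57 in ipsilateral replicate 1, 8.04 to 8.33 in the other ipsilateral arrays and 7.57 to 7.85 contralaterally, with Sox11 and Cd24a higher. The other 2 genes, Dcx and Igfbpl1, did not pass with or without that array. Dcx differed by 0.44 ± 0.58 over all arrays and by -0.21 ± 0.13 without it. Igfbpl1 differed by 0.40 ± 0.18 and by 0.195 ± 0.06. Of 5 immediate early genes, which neurons switch on with activity, Arc (-3.44 ± 0.56) and Egr1 (-1.96 ± 0.33) fell, and the mean was 10.63 in ipsilateral replicate 1, 7.57 to 8.75 in the other ipsilateral arrays and 10.52 to 11.15 contralaterally. All 5 were lower without ipsilateral replicate 1, with Fos, Fosb and Nr4a1 added, and none of Arc (adjusted p = 0.108), Egr1 (0.150) and the hippocampal Wfs1 (0.0545) was called without replicates 2 and 4 of both sides. Of 5 genes for activity-dependent inputs to interneurons none passed, and the neurotrophin Bdnf differed by -0.26 ± 0.10 (adjusted p = 0.162). Npas4 was lower without ipsilateral replicate 1 (-1.31 ± 0.32, adjusted p = 0.0374). Each of these lists had its values on all 10 arrays and none at 0.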

How the data were processed

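RNA of 10 brain samples, 5 ipsilateral and 5 contralateral, was measured on 10 Affymetrix arrays. The values are log2 signals as deposited. According to the submitters' processing notes, the authors used Transcriptome Analysis Console 4.0. That the scale is log2 follows from the range of 1.97 to 19.93. Background correction, normalization, summarization and genome build are not given in the sources used here. Array medians were 4.79 to 4.84 ipsilaterally and 4.71 to 4.77 contralaterally, so an offset between arrays cannot be told apart from side. The number of arrays limits the precision, and the labels named no batch.

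Of 65956 rows in the table, 30604 named 1 gene, and the row with the highest mean was kept per gene, which gave 30142 genes. Side was fitted with limma 3.58.1 (R 4.3.3, lmFit and eBayes, no covariates), and Benjamini-Hochberg adjustment ran over all genes. Fold changes are given with the SE of the fit. The steps were tested on simulated data. The members and lists were chosen with earlier results of these data known, and the olfactory bulb list was added after the members' values by array had been seen. Named genes were all members, Gad1, Gad2, Slc32a1 and Lhx6, from each list its called genes (at most 5) or, with none called, the 1 with the largest moderated statistic, and the 3 nearest profiles of each called member. Genes outside that rule were chosen after their values were seen. They were the named olfactory bulb and Cajal-Retzius genes, list genes called only with an array left out, Chodl, Dcx, Igfbpl1, Lrp8, Vldlr and Dab1. Alternatives were a replicate block, 3 other scalings, 2 filters on dim genes, the mean of a gene's rows, another variance model, array weights, a stricter threshold, leaving out each array, and leaving out replicates 2 and 4 of both sides. Leaving out both arrays that stood apart was added after the data were seen.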

Additional observations from a re-analysis of the deposited data

Results flagged for a closer look

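Single arrays that lay far from the rest of their side were looked for in 98 groups, each being 1 named gene on 1 side, with Dixon's criterion for 5 samples (0.71 of the range). Chance marks about 1 in 20 such groups. The criterion picked out 11, of which 5 were ipsilateral replicate 1 and 6 contralateral replicate 4. In ipsilateral replicate 1, Ndnf read 11.65 against at most 9.35 in the other ipsilateral arrays, Gad1 14.65 against at most 12.35, and Cdhr1 12.3 against at most 7.31. Cux2 read 8.07 there against at most 7.65, and Syt2 6.65, below the 7.06 of the next array. In contralateral replicate 4, Pvalb read 7.48 against at least 8.47 in the other contralateral arrays and Calb2 read 9.0 against at most 8.09. Satb1 was low there at 8.40 (next array 9.07), Kcnc1 at 8.97 (9.13) and Mog at 8.53 (9.61), and Cdhr1 was high at 6.34 (5.43). No array of Sst, Vip or Lamp5 met the criterion on either side.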

How the results depend on the processing

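The 3 lower calls among the markers stayed at 3 with the replicate block, quantile normalization, cyclic loess, both filters on dim genes, the mean of a gene's rows, the other variance model, array weights and the stricter threshold of 0.01, became 4 with median centring and 2 without replicates 2 and 4 of both sides. No marker was called higher over all arrays, and 0 to 1 when 1 array was left out (1 without ipsilateral replicate 1 and 1 without contralateral replicate 4). Leaving out both arrays that stood apart, an alternative chosen after seeing the data, gave 5 lower and 3 higher. Of 219 values of single markers, 207 kept direction and call, 1 lost its call, 9 gained one and 2 turned, Sst at 0.0175 without both arrays and 0.036 without ipsilateral replicate 1 (-0.31 to 0.036 over the fits without 1 array). Of 856 values of the other named genes, 732 kept both, 87 lost and 26 gained a call, and 11 turned. Gad1 (-0.33) and Slc32a1 (-0.27) turned without ipsilateral replicate 1, and were -0.40 and -0.29 without both arrays. Slc32a1 was also -0.016 with median centring, -0.094 with array weights and -0.065 without ipsilateral replicate 3. Lhx6 was -0.038 with median centring, -0.032 with quantile normalization, and -0.0485 and -0.031 without ipsilateral replicates 3 and 5. Over the fits without 1 array, Gad1 lay between -0.33 and 0.41, Slc32a1 between -0.27 and 0.23 and Lhx6 between -0.0485 and 0.12. The cause was not tested. Leaving out 1 array gave 25 to 33 differing pairs of markers and 5 to 7 markers that differed from Gad1 and Gad2 (8 with quantile normalization). Samples with the same number did not deviate together over all genes (correlations of 0.26, 0.25, -0.04, -0.40 and -0.03, and only number 1 matched its own number best), so the numbers were not taken as pairs. With the replicate block the adjusted p was 0.0192 for Pvalb, 0.0180 for Vip and 0.00906 for Lamp5. Calls lost with it were those of Tacr1 (0.0660), Cckbr (0.0605), Sstr4 (0.136), Nefl (0.0629), Bcl11b (0.0553) and Col1a1 (0.112). Over all genes, 1305 lower and 369 higher calls became 769 and 177 with that block, 2130 and 225 with median centring (of the calls, a larger share lower), 970 and 464 with cyclic loess, 1614 and 656 with array weights, 537 and 47 at the stricter threshold, 289 and 77 without replicates 2 and 4 of both sides, 1472 and 688 without both arrays that stood apart, and 740 to 1607 and 111 to 760 when 1 array was left out. Cort, near the array medians, allows no statement on its change.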
